A study of Mus musculus with 3 samples.

Results

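NR2F2 (COUP-TFII) is an orphan nuclear receptor, a DNA-binding transcription factor, and its binding sites in the fetal testis of the CD-1 mouse strain were mapped at E14.5 by chromatin immunoprecipitation and sequencing (ChIP-seq). The 2 ChIP libraries, NR2F2_ChIP replicates 1 and 2, were independent experiments, each made from 18 µg of sheared chromatin of 30 pooled testes with 5 µl of antibody, and 1 library of input chromatin (DNA without immunoprecipitation) served as the control. Reads of each library were counted in 1 shared set of 10069 peaks, each 300 bp long (mm10), with totals at peaks of 73251 counts for the input, 426784 for replicate 1 and 364261 for replicate 2. Whole testes were used with no sorting by cell type, so the signal was pooled over every cell of the organ that holds NR2F2.

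The peaks described here lay more than 100 kb from the transcription start site (TSS) of any curated RefSeq transcript, measured from the nearer edge of the peak. They numbered 796 of the 10064 peaks on placed chromosomes, or 7.91%. Their distance to the nearest TSS ran from 100.2 kb to 1622.5 kb with a median of 160.2 kb, and 5 lay more than 1000 kb away. Of the 796, 519 lay outside genes, 266 in introns, 7 in coding exons and 4 in other exon sequence. The name of the group holds for the curated annotation only. With predicted RefSeq transcripts added, 289 of the 796 stayed over 100 kb from a TSS, with GENCODE M21 transcripts 133 did, and 81 did by all of these annotations, while 64 lay within 1 kb of a predicted or GENCODE TSS.

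Nuclear receptors of the COUP-TF family bind DNA as dimers on pairs of the half-site AGGTCA, and a pair in the same orientation with 1 base between the copies is a well known arrangement. Regulatory elements far from promoters, called enhancers or silencers, can act on genes over long distances, often across other genes and from within the introns of neighbours, so the flanking genes named below locate a peak and do not say which gene it acts on. NR2F2 is known in the fetal testis as a marker of interstitial cells, the mesenchymal population that lies between the testis cords and includes progenitors of steroid-producing fetal Leydig cells.

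The sequences of 7 peaks are given to show what lies under the strongest and the most clustered of these distant sites. All are from the plus strand of the RefSeq GRCm38 assembly, 5′ to 3′, and capitals mark each copy of AGGTCA on either strand, so that a copy on the minus strand reads TGACCT. The first set holds 2 of the peaks with the most ChIP counts, at chr8:116248372-116248671 between Gm30712 and Dynlrb2 and at chr9:36972240-36972539 in an intron of Pknox2.
Gm30712 to Dynlrb2: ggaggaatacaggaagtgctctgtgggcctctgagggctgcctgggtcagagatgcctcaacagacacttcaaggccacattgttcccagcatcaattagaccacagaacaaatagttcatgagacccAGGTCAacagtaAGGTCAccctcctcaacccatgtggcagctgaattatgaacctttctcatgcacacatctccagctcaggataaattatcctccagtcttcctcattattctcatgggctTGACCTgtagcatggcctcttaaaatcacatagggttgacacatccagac
Pknox2 intron: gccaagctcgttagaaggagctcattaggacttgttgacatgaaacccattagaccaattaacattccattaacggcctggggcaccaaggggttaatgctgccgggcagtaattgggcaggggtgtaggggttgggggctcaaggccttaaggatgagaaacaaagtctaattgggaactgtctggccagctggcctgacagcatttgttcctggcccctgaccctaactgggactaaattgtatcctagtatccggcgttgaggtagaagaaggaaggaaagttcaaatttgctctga
They are unlike one another. The first holds 3 spaced copies and the second holds no copy at all.

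The second set shows the half-site pair with 1 base between its copies, in the 2 peaks with that pair and the most ChIP counts, chr8:47117050-47117349 between Enpp6 and Stox2 and chr8:120365097-120365396 between A330074K22Rik and Gse1.
Enpp6 to Stox2: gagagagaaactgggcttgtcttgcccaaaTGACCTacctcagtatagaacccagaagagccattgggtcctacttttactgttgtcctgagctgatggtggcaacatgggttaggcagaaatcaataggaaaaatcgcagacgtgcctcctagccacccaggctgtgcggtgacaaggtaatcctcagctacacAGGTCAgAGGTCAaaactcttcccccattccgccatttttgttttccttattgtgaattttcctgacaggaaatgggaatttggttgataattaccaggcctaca
A330074K22Rik to Gse1: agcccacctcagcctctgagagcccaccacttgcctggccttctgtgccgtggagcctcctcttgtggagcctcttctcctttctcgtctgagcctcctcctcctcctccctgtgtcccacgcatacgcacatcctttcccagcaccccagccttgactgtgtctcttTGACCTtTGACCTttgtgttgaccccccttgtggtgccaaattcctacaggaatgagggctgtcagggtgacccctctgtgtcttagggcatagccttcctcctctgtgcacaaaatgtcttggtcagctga
In the first the pair is on the plus strand with a further copy elsewhere in the peak, and in the second it is on the minus strand.

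The third set holds a peak with the most ChIP counts in each of 3 stretches between neighbouring TSSs that carried the most distant peaks, chr7:71524574-71524873 upstream of Nr2f2 itself, chr9:116847412-116847711 in an intron of Rbms3 and chr8:115006643-115006942 in an intron of Wwox on the Maf side.
Nr2f2 to 4930441H08Rik: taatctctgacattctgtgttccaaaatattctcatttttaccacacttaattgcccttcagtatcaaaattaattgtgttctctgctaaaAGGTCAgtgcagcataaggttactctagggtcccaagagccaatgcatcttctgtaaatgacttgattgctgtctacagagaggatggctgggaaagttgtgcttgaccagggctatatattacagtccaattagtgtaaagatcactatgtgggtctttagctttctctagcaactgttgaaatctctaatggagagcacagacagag
Rbms3 intron: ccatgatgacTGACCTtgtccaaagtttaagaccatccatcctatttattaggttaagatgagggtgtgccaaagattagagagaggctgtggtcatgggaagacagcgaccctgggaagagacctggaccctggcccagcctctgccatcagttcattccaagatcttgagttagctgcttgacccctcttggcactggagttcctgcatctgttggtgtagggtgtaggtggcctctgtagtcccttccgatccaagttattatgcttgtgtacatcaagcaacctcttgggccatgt
Wwox intron: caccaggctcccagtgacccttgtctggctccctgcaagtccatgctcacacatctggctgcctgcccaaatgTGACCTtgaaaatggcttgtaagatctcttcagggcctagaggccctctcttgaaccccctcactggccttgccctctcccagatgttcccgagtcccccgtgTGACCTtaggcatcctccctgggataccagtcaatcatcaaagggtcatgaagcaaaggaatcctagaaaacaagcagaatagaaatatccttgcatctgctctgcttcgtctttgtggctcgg
The Nr2f2 and Rbms3 peaks hold 1 copy each and the Wwox peak holds 2.

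Distant peaks were sparse for the sequence they were drawn from. Sequence over 100 kb from a TSS made up 36.9% of the known bases of the genome (977 Mb) and held 7.91% of the placed peaks, or 0.814 peaks per Mb. Density was 108 peaks per Mb within 1 kb of a TSS, 2.35 per Mb at 1 to 10 kb, and 1.97 and 2.12 per Mb at 10 to 100 kb inside and outside genes. Beyond 100 kb it fell further with distance, from 1.41 per Mb (529 peaks) at 100 to 200 kb to 0.597 per Mb (227 peaks) at 200 to 500 kb and 0.180 per Mb (40 peaks) over 500 kb. Distant sequence inside genes held 1.27 peaks per Mb (277 peaks) and distant sequence outside genes 0.684 (519 peaks). Masked repeats, in which reads are harder to place, made up 29.0% of the bases of the former and 46.1% of the latter, and 51.9% of the bases over 500 kb from a TSS. The part of repeats in these densities was not tested.

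**Figure D1:**
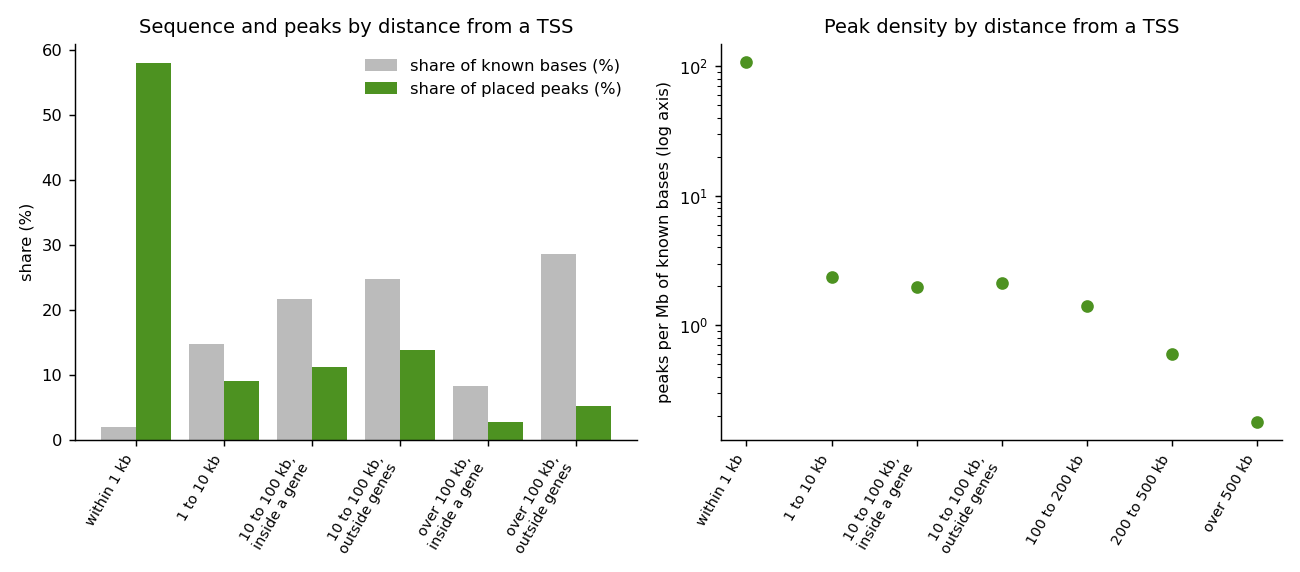
Share of known bases and of placed peaks by distance from the nearest curated RefSeq TSS (left, bars in %), and peaks per Mb of known bases by distance (right, log axis). Sequence over 100 kb from a TSS, inside and outside genes together, holds 36.9% of the bases and 7.91% of the peaks, and the density drops from 1.41 to 0.180 peaks per Mb between 100 to 200 kb and over 500 kb.

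By chromosome, the count of distant peaks ran from 10 on the X to 68 on chromosome 1, and no peak of any kind was counted on the Y. Density over distant sequence was highest on chromosome 9, at 1.48 per Mb, and, among chromosomes with a peak, lowest on the X, at 0.149 per Mb. The 10 peaks on the X had a median of 4 input counts against 6 on the autosomes, and medians of 23 and 22 ChIP counts against 26 and 25. Over all X peaks of the series the input median was 4, and the part of X copy number in these counts was not tested.

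In counts, the distant peaks were at the low end of the peak set. The input ranged from 1 to 19 counts per peak with a median of 6, replicate 1 from 7 to 138 with a median of 26, and replicate 2 from 8 to 115 with a median of 25. Peaks within 1 kb of a TSS had medians of 7, 40 and 33. Of the distant peaks, 3.77% reached the top 10% of all peaks by summed ChIP count (129 or more), compared with 11.7% of peaks within 1 kb of a TSS. Every peak had been chosen by the authors for a high ChIP signal in the merged replicates, so a difference from the input was built into the list and its size is a description. At 795 of the 796 each replicate had more counts than the input, as 99.9% of all 10069 peaks did. The exception, between A830018L16Rik and Mir6341, had 11 input, 9 and 23 ChIP counts.

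The median ratio of ChIP to input counts was 4.17 ± 0.142 (SD, n = 2 replicates) at the distant peaks, 4.27 in replicate 1 and 4.07 in replicate 2, with 0.5 added to each count. Within 1 kb of a TSS it was 5.05 ± 0.667. On the log2 scale the medians differed by -0.27 ± 0.142 (SD, n = 2), from -0.37 for replicate 1 to -0.17 for replicate 2. Both replicates gave the lower ratio to the distant peaks, although 1 input library serves both, and the difference was not tested. Against peaks at 10 to 100 kb the difference was smaller than that, -0.04 ± 0.0474 inside genes and -0.06 ± 0.0538 outside them. Within the distant group the median ratio did not follow distance in the same way in both replicates: at 100 to 200, 200 to 500 and over 500 kb it was 4.27, 4.33 and 4.10 in replicate 1, and 3.95, 4.18 and 4.68 in replicate 2. In these bins the median count was 7, 6 and 5 in the input, 27, 24 and 21 in replicate 1 and 26, 23 and 24 in replicate 2.

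**Figure D2:**
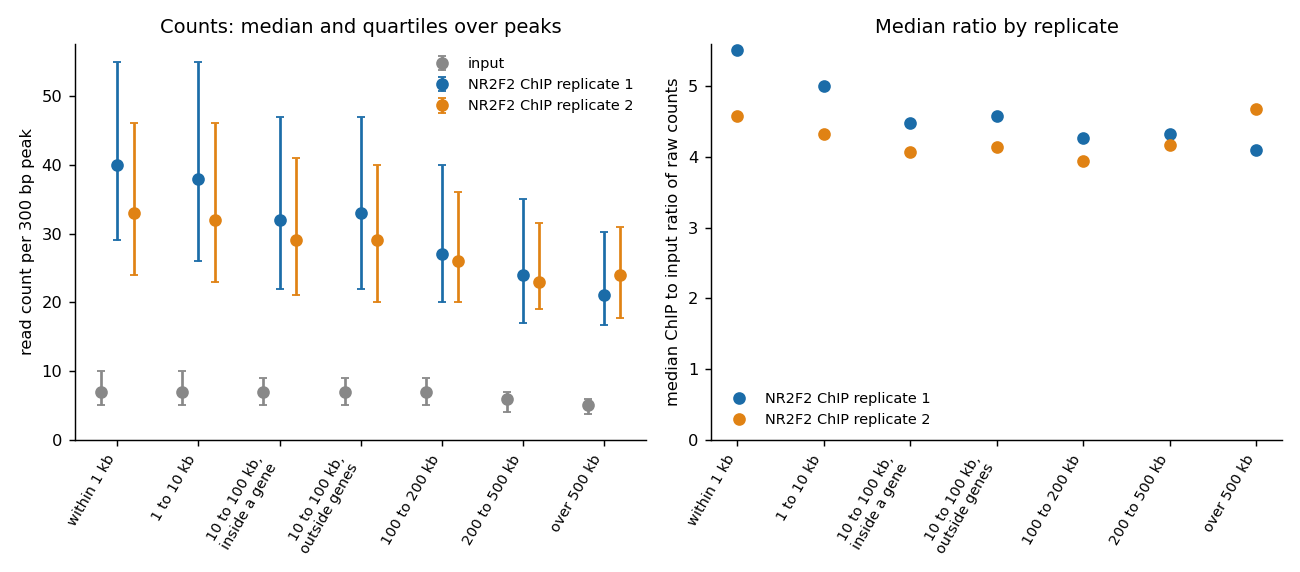
Counts per 300 bp peak by distance from a TSS in the 3 libraries (left, points are medians over peaks and bars the quartiles), and the median ratio of ChIP to input counts in each replicate (right, 0.5 added to each count). ChIP medians drop from 40 and 33 within 1 kb of a TSS to 21 and 24 over 500 kb away, while the ratios at peaks over 100 kb stay between 3.95 and 4.68.

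Against an input assumed to be as deeply sequenced as the ChIP libraries, 580 of the 796 (72.9%) were above input by the quasi-likelihood test of edgeR, where 80.7% of all 10069 peaks were. At that depth DESeq2 called 330 of the 796 and the robust edgeR fit 756. These counts rest on the assumed depth, since whole-library totals were not used here. Had the ChIP libraries been 2 times as deep as the input, 0 of the 796 would have passed by edgeR, with 224 at an unadjusted p under 0.05. Taken relative to the typical peak, which needs no depth, 3 of the 796 had a higher ChIP to input ratio (0.377%, where 1.53% of all peaks did) and 0 had a lower one (0.0497% of all peaks did). At unadjusted p under 0.05, 25 of the 796 were higher and 23 lower by edgeR, where 794 and 257 of all 10069 peaks were. DESeq2 gave 3 higher and 0 lower at that unadjusted p, and called 0 in either direction at an adjusted p under 0.05. It gave no adjusted p for 776 of the 796.

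The 3 peaks above the typical ratio were the one between Gm30712 and Dynlrb2, one of those inside Pknox2, and one on the X between Nhs and Reps2. The peak between Gm30712 and Dynlrb2, which encodes a light chain of the dynein motor, held 7 input, 138 and 115 ChIP counts, the most ChIP counts of all distant peaks. It lay 256 kb upstream of Dynlrb2, and its ratio was 1.85 ± 0.449 (SE) above the typical peak on the log2 scale (edgeR adjusted p = 0.00516). The Pknox2 peak held 6, 107 and 99 counts, 1.78 ± 0.497 above the typical peak (edgeR adjusted p = 0.0294). The X-linked peak (chrX:162363209-162363508), 202 kb downstream of the Reps2 TSS, held 2, 82 and 59 counts, 2.80 ± 0.743 above the typical peak (edgeR adjusted p = 0.0171), with only 2 input counts behind it. In all 3 both ChIP counts were far above the input count and the replicates were close to each other. All 3 calls were lost with DESeq2 size factors in the same fit, at adjusted p of 0.0969, 0.203 and 0.186 in that order, and the Pknox2 call also without TMM factors (adjusted p = 0.0698).

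The 10 distant peaks with the most ChIP counts had 64 to 138 counts in replicate 1, 75 to 115 in replicate 2 and 6 to 19 in the input. Among them, after the Pknox2 peak, was an intron of Hivep3, a zinc finger factor, 137 kb upstream of Edn2, the ligand endothelin 2, with 10, 110 and 76 counts. A peak between Pgrmc2 and Platr4 had 11, 97 and 86 counts. The peak between Tfap2c, a transcription factor known from germ cells, and Bmp7, a BMP ligand, lay 108 kb from the Bmp7 TSS on its downstream side and had 9, 92 and 88 counts. One in an intron of Ttc28 had 12, 104 and 75 counts. The last of the 10 were an intron of Adgrl3, an adhesion receptor, with 8, 64 and 109 counts, and the Enpp6 to Stox2 peak printed above, with 9, 87 and 84. In each of the 10 both replicates exceeded the input by more than 4-fold.

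Inputs of 17 counts, near the top of their range, were found at a Col23a1 intron with 92 and 57 ChIP counts and at a peak between Zeb1 and Arhgap12 with 59 and 40. Of the 5 peaks farthest from a TSS, 1 was above the median of 51 summed ChIP counts. The farthest lay 1622.5 kb from Gm32810 in the gene-poor stretch before Cntnap5a, which encodes a neurexin-like adhesion protein, and had 5, 19 and 11 counts. A second peak of that stretch had 6, 30 and 26 counts, and the others had 3, 23 and 20 (D3Ertd751e to 2610316D01Rik), 4, 15 and 17 (Gm10440 to 4932441J04Rik) and 4, 17 and 23 (Nudt12 to Efna5). The 1 between Gm10440 and 4932441J04Rik overlapped a GENCODE TSS. At the threshold itself, the 5 distant peaks nearest to it lay 100190 to 100851 bp from a TSS and had 26 to 56 counts in replicate 1, and the 5 peaks just short of it lay 99673 to 99987 bp away and had 17 to 49.

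The replicates agreed less closely at distant peaks than elsewhere: Spearman rho was 0.697 over the 796 and 0.821 over the other 9268 placed peaks, a description over peaks that share the same libraries and differ in depth of count. Distant peaks made up 5.74% of the counts at peaks in replicate 1 (95% Wilson interval 5.67 to 5.81), 6.30% in replicate 2 (6.22 to 6.38) and 6.94% in the input (6.76 to 7.12), intervals that cover counting error only. Totals of replicate 1 were 1.07 times those of replicate 2 at distant peaks, 1.12 and 1.14 times at 10 to 100 kb inside and outside genes, and 1.18 times at 1 to 10 kb. Replicate 2 thus gave a larger part of its counts to the distant peaks.

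Peak by peak, 4 of the 796 (0.503%) differed between the replicates by an exact two-sided binomial test against the ratio of the totals (0.0993% of all peaks did), and all 4 were higher in replicate 2. The test sets 2 libraries against counting error alone, so ordinary variation between experiments is not allowed for. They were the Adgrl3 intron with 64 and 109 counts (adjusted p = 0.0157), the peak between Rpl17-ps10 and Gm6567 with 11 and 38 (adjusted p = 0.0157), a peak between Tmem72 and Cxcl12 with 32 and 67 (adjusted p = 0.0225) and a peak between 4930431P22Rik and Lacc1 with 27 and 58 (adjusted p = 0.0454). With the ratio taken from the totals of the distant peaks instead, none of these 4 passed and 1 other did, between Ccdc34os and Bbox1 with 49 and 13 counts (adjusted p = 0.0264). The adjusted p of the Rpl17-ps10 to Gm6567 and Adgrl3 peaks was then 0.0550 and 0.0726.

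**Figure D3:**
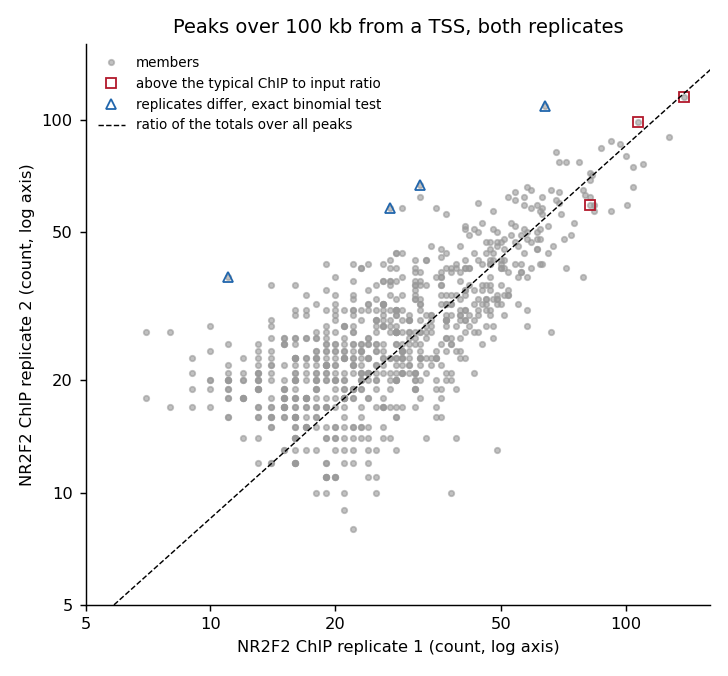
Counts of the 796 distant peaks in NR2F2 ChIP replicates 1 and 2 (log axes), with squares for the 3 peaks whose ratio to input exceeded that of the typical peak, triangles for the 4 peaks whose replicates differ, and the ratio of the totals over all peaks as a dashed line. The triangles all lie above the line, at higher counts in replicate 2.

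Distant peaks were spread over many stretches of sequence between neighbouring TSSs. Of 2870 such stretches long enough to hold one, 546 (19.0%) did, 379 of them with a single peak, 112 with 2, 37 with 3 and 18 with 4 or more. The stretches with a peak had a median length of 473 kb and those without 338 kb. Of stretches of 200 to 400 kb 12.8% held a distant peak, of those of 800 to 1600 kb 30.8%, yet the longest, over 1600 kb, held 0.175 peaks per Mb against 1.97 in the shortest. The median gap from a distant peak to the next peak of any kind was 124 kb, and 53 of them (6.66%) had another peak within 10 kb, compared with 18.4% of peaks within 1 kb of a TSS.

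The stretch with the most distant peaks was the one upstream of Nr2f2 itself (GeneID 11819), the gene of the immunoprecipitated factor, and it held 7. It runs for 1543 kb on chromosome 7 from the Nr2f2 TSS to that of 4930441H08Rik. The 7 peaks lay 456, 493, 657, 1158, 1165, 1166 and 1387 kb upstream of the Nr2f2 TSS. In that order their input counts were 4, 3, 2, 9, 9, 9 and 4, their replicate 1 counts 12, 18, 25, 31, 18, 24 and 18, and their replicate 2 counts 14, 26, 24, 34, 20, 41 and 23. All 14 ChIP counts were above the input at the same peak, but none of the 7 ranked above 237th of the 796 by ChIP counts, and the highest sum was shared by the peak printed above (31 and 34) and the one with 24 and 41. The 3 at 1158 to 1166 kb lay within 10 kb of one another. These 3 and the one at 1387 kb were nearer to the TSS of 4930441H08Rik, 156 to 385 kb away, than to that of Nr2f2. Of the 7, 4 held at least 1 AGGTCA and none held the pair with 1 base between copies.

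Next came the stretch between Gm4668 and a TSS of Rbms3 (GeneID 207181), which encodes an RNA-binding protein, with 6 peaks, all in Rbms3 introns. The strongest had 10, 63 and 62 counts and the weakest 4, 11 and 16. With 2 more peaks beyond that TSS, Rbms3 held 8 distant peaks, more than any other gene, within a span of 1057 kb. At 2 of the 8 the pair with 1 base between the half-sites was present. Between Wwox, an oxidoreductase gene, and Maf (GeneID 17132), a basic leucine zipper factor, 5 peaks lay 177 to 700 kb downstream of the Maf TSS, 3 of them in Wwox introns. The strongest had 8, 83 and 71 counts and the others 31 to 46 in replicate 1 and 32 to 42 in replicate 2. Maf and Bach2 were the 2 of 4 eligible AP-1 and Maf family genes with distant peaks (50%, against 22.5% of all genes that flank distant sequence), 6 in all.

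Wwox to Maf was 1 of 5 stretches tied at 5 peaks, which were ordered by summed ChIP counts. Between Kazn, which encodes the cell junction protein kazrin, and Mir7021, 1 peak lay 105 kb upstream of the Kazn TSS and 4 lay 538 to 641 kb upstream. The one at 538 kb had 4, 70 and 56 counts and the other 4 had 30 to 54 in replicate 1 and 21 to 47 in replicate 2. Between Zfp608, a zinc finger gene, and Gramd3, 5 peaks had 13 to 38 counts in replicate 1 and 13 to 28 in replicate 2, over inputs of 1 to 9. The other two were Plpp3 to Gm12724 and Nudt12 to Efna5. With 3 further peaks on its other side, Efna5, an ephrin ligand, was flanked by 8 distant peaks.

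Pknox2 (GeneID 208076), a homeobox factor of the TALE class, held 4 distant peaks within a stretch of 314 kb, more per Mb than the stretches above. They lay 116, 117, 139 and 175 kb downstream of the Pknox2 TSS and in that order had 5, 6, 11 and 6 input counts, 56, 42, 40 and 107 in replicate 1 and 49, 49, 30 and 99 in replicate 2. The peak farthest from the TSS was the strongest, and the 2 nearest lay side by side. Only the 1 at 139 kb held a copy of AGGTCA. With predicted RefSeq transcripts added, the 4 lay 6.08, 6.81, 11.6 and 1.59 kb from a TSS, in the order above. From a GENCODE TSS they lay 4.54, 3.81, 7.42 and 14.7 kb. Rad51b, a DNA repair gene, also held 4, with 27 to 57 counts in replicate 1 and 30 to 51 in replicate 2, and 4 each lay inside Ldb2, Dock4, Lrmda and Hpse2.

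**Figure D4:**
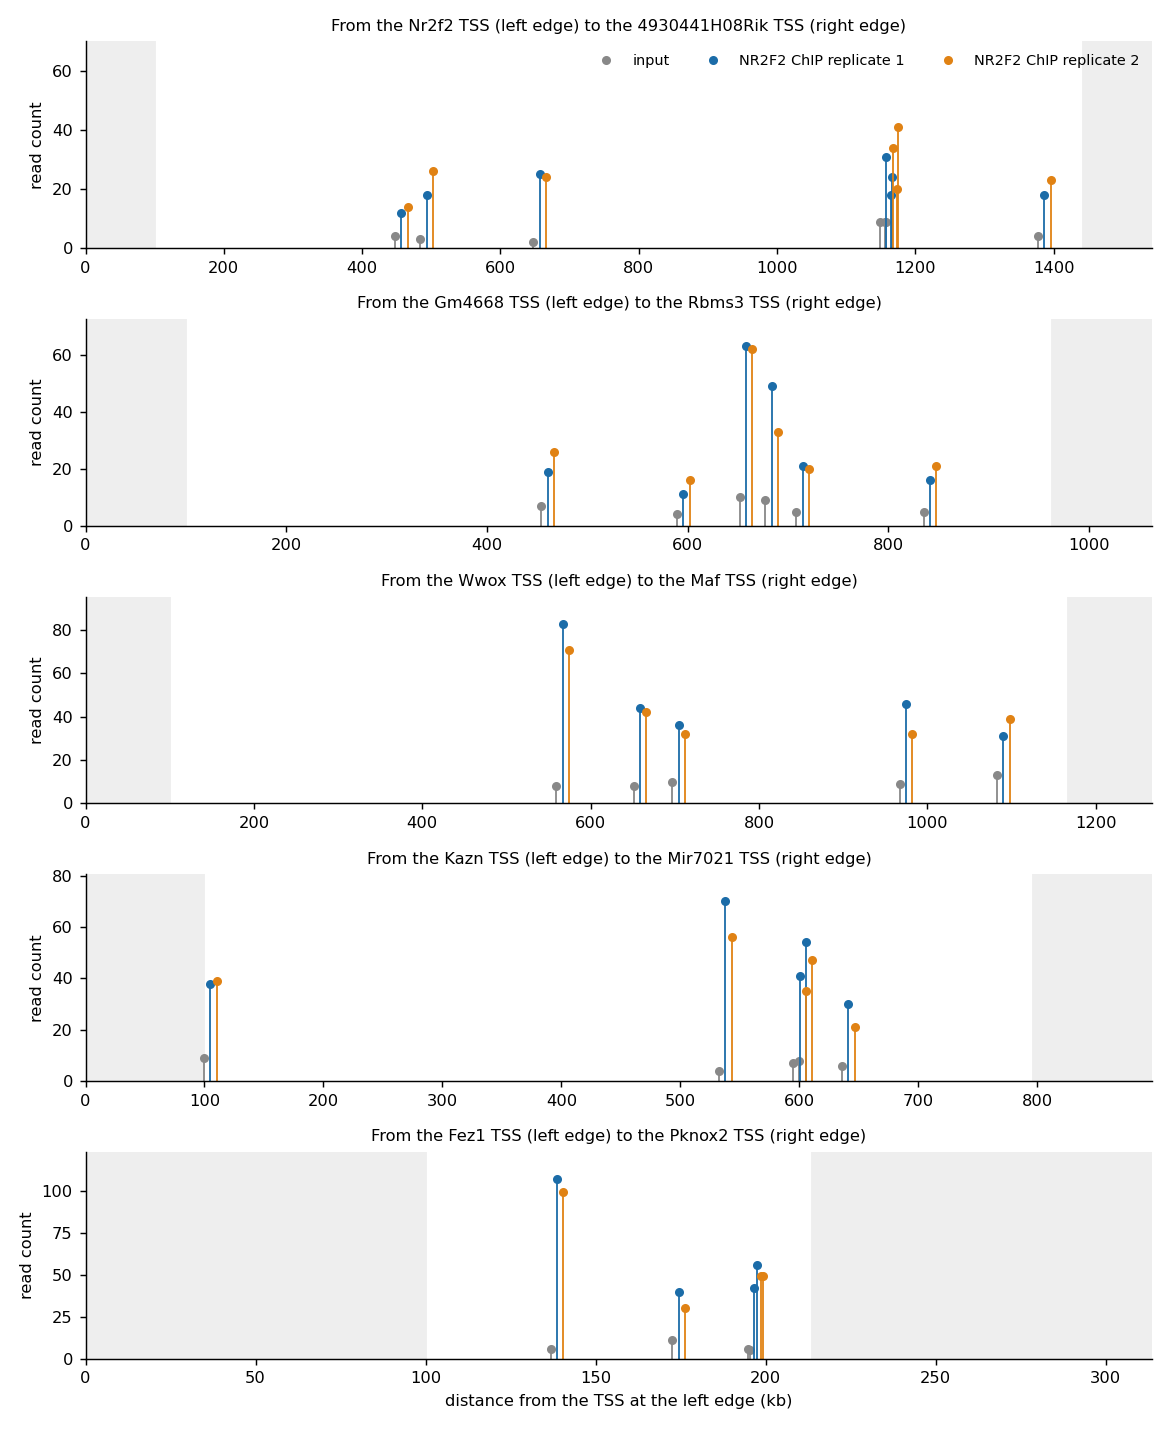
Distant peaks in 5 stretches between neighbouring TSSs, by distance from the TSS at the left edge (kb), with the count in each library as a stem. Stems of the 3 libraries are shifted sideways by a small amount so that all can be seen, and grey bands mark the 100 kb next to each TSS. In every peak shown both ChIP stems stand above the input stem, and the tallest, 107 and 99 counts, is in Pknox2.

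Genes of 12 lists, 777 genes in all, were looked up among the genes on either side. Of the 796 peaks, 159 were flanked by a listed gene. Of the 4561 genes that flank any sequence over 100 kb from a TSS, 1024 (22.5%) bordered a stretch with a distant peak, and of the 296 listed genes among them 90 (30.4%) did. Stretches beside listed genes had a median length of 393 kb and 1.12 distant peaks per Mb, and the others 356 kb and 0.759 per Mb. The lists overlap, and these shares are descriptions with no test.

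Among interstitial cell genes, some of which the study picked from its own data, 5 of the 10 that could have bordered a distant peak did (50%, against 22.5% of all flanking genes), with 17 peaks in all. They were Nr2f2 (7 peaks), Pknox2 (4), Wnt5a (3), Smad3 (2) and Tcf21 (1). At 9 of the 17 peaks the nearest TSS was that of a gene of this list. Wnt5a, a secreted Wnt ligand, had its peaks toward Erc2, with 6, 49 and 47 counts at the strongest, 462 kb upstream of the Wnt5a TSS. That strongest peak lay in an Erc2 intron, 421 kb from the Erc2 TSS and 2.96 kb from a GENCODE TSS. The peak beside Tcf21, a bHLH factor of mesenchyme, had 6, 18 and 27 counts, and the 2 beside Smad3, a mediator of TGF-β signals, had 28 and 27, and 27 and 29, over 11 input counts each. Of these 17, 14 were above input at the assumed equal depth, near the 80.7% of all peaks. Ebf1, Gli2, Inhba and Tmsb10 were among those that bordered distant sequence without a peak. For fetal Leydig cells, 1 of 4 eligible genes (25%) had one, Rora, with 6, 32 and 23 counts, and Esrrg, Gata6 and Thrb had none. Of Sertoli cell genes, 1 of 6 eligible (16.7%) had a peak, Fgf9, with 6, 19 and 15 counts. Of germ cell genes, 1 of 4 eligible (25%) did, Kit, with 2 peaks toward Kdr, with 7, 31 and 19 counts and 5, 21 and 26.

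Of nuclear receptor genes, 4 of 20 eligible ones had distant peaks (20%, near the 22.5% of all flanking genes): Nr2f2, Nr5a2 (2), Esr2 (1) and Rora (1). The peak nearest to Esr2, the estrogen receptor β gene, lay in a Syne2 intron, 105 kb on the downstream side of the Esr2 TSS. It was 135 bp from a GENCODE TSS and had 7, 25 and 33 counts. Homeobox genes had 15 of 46 (32.6%) and 24 peaks, among them Tshz3 (4 peaks, 5, 59 and 65 counts at the strongest), Zeb1 (4) and Meis1 (2). Among zinc finger genes, 6 of 31 (19.4%) had peaks, with 11, 82 and 72 counts at a peak 118 kb upstream of Klf4 and 4 peaks beside Osr1, a regulator of mesenchyme. Of bHLH genes, 7 of 22 (31.8%) did, with 7, 66 and 65 counts beside Twist2 and 7, 57 and 62 at a peak 134 kb upstream of Epas1, the gene of HIF-2α. Forkhead, Sox and T-box genes had 9 of 22 (40.9%), with 10, 77 and 77 counts 112 kb upstream of Foxa2, and their 12 peaks had medians of 8 input and 45.5 and 42 ChIP counts, against 6, 26 and 25 over all 796. Bach2, a repressor of the AP-1 and Maf class, had 8, 84 and 59 counts.

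Signalling genes gave the most peaks, 51 beside 26 of 74 eligible genes (35.1%). Efna5 had 8, and Cxcl12 (a chemokine), Efnb2, Nrg1, Robo1 and Wnt5a had 3 each. The strongest after Bmp7 was beyond Cxcl12, with 11, 68 and 82 counts, followed by a peak 202 kb from the TGF-β co-receptor gene Tgfbr3 with 9, 82 and 62, and one near Efnb2 with 13, 84 and 57. Bmp2, Fgf10, Kitl and Vegfc were among the eligible genes with none. Matrix and adhesion genes had 22 of 72 (30.6%) and 32 peaks, 5 of them beside the protocadherin gene Pcdh18. The strongest were the Col23a1 intron with 17, 92 and 57 counts and a peak near the protease gene Adamts1 with 10, 72 and 40.

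The sequence of distant peaks differed from the sequence around them and from that of promoters. Their median GC content was 50.3% (quartiles 47.3 and 54.0), compared with 43.0% in 300 bp windows 2 kb to either side, 39.0% over all 3255165 tiles of 300 bp of distant sequence and 65.3% in peaks within 1 kb of a TSS. Peaks at 10 to 100 kb were nearer to them, at 53.0% inside and 53.3% outside genes, with a median of 5 CpG dinucleotides and 10.1% and 10.3% of bases masked as repeats on average. In 736 of the 796 (92.5%) GC was above the mean of their own 2 flanking windows. They held a median of 4 CpG dinucleotides, where peaks within 1 kb of a TSS held 25, and their ratio of observed to expected CpG was 0.206, where that of peaks near a TSS was 0.788. Of the distant peaks 11.3% had 10 CpG or more, compared with 95% near a TSS. Soft-masked repeat sequence filled 9.76% of their bases on average, 23.8% of the flanking windows and 42.3% of all distant sequence. Toward greater distance GC was lower, at medians of 51.0%, 49.7% and 48.2% in the bins 100 to 200, 200 to 500 and over 500 kb. The 64 peaks within 1 kb of a predicted or GENCODE TSS were at 54.3% GC with a median of 6.5 CpG, closer to the other distant peaks than to promoters, and had 31 and 28.5 ChIP counts in the median.

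The half-site AGGTCA, searched on both strands, was present in 468 of the 796 (58.8%, 95% Wilson interval 55.3 to 62.2), in 17.2% of the windows 2 kb to either side and in 14.7% of all tiles of distant sequence. Peaks within 1 kb of a TSS held it in 25.6%, and peaks at 10 to 100 kb in 57.2% inside and 52.7% outside genes. The longer form that begins AGAGGTCA or AGGGGTCA, the first of which contains AGGTCA, was in 130 (16.3%, 13.9 to 19.1), against 2.64% of the flanking windows, 2.17% of tiles and 6.18% of peaks near a TSS. Of peaks at 10 to 100 kb, 17.5% inside and 15.9% outside genes held the longer form. Of the 796, 490 held AGGTCA or the longer form and 306 held neither. The share with AGGTCA changed little with distance, at 58.4%, 59.5% and 60% in the 3 bins. Copies were centred: there were 4.81 per kb within 50 bp of the peak centre, 6.81 times the 0.706 per kb at 500 to 1000 bp, where peaks near a TSS had 1.27 and 0.560.

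**Figure D5:**
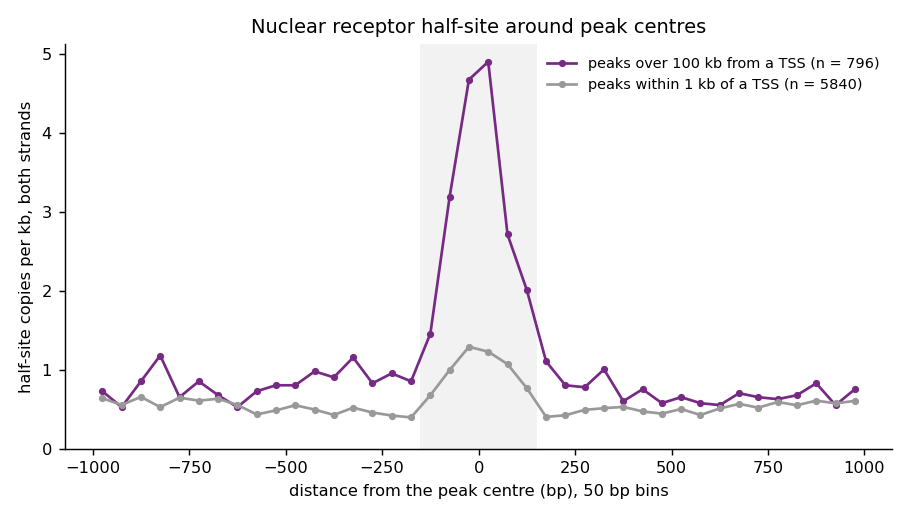
Copies of the nuclear receptor half-site per kb (both strands, 50 bp bins) by distance from the peak centre, for the 796 distant peaks and the 5840 peaks within 1 kb of a TSS, with the 300 bp of the peak shaded. Both profiles rise at the centre, to 4.81 copies per kb within 50 bp in the distant peaks and 1.27 in those near a TSS.

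Pairs of half-sites in the same orientation were rarer. With 1 base between copies, the pair was in 26 of the 796 (3.27%, 2.24 to 4.74), in 0 of the 1592 flanking windows, in 0.0262% of tiles and in 0.223% of peaks near a TSS. Peaks at 10 to 100 kb held it in 2.92% inside and 2.53% outside genes. With no base between copies it was in 11, with 2 bases in 6, and with 3, 4 or 5 bases in 1, 2 and 1. The 26 had 7 to 87 counts in replicate 1 and 14 to 84 in replicate 2, with medians of 23 and 30, which straddle the 26 and 25 of all 796. After the 2 printed above, the strongest were the peaks between Gm16087 and 4930465M20Rik with 8, 69 and 77 counts, Rps24 and Gm32123 with 5, 54 and 64, Slc30a5 and 5930438M14Rik with 11, 52 and 62, and Fhl2 and Nck2 with 12, 62 and 48. Counts with and without the plain half-site were close: the 468 with AGGTCA and the 328 without it both had medians of 6 input counts and 26 in replicate 1, with 26 and 23 in replicate 2. The 130 peaks with the longer form had medians of 30.5 and 28 ChIP counts and the 666 without it 25 and 24, both over 6 input counts.

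At 10 distant peaks the half-site came in 5 to 17 copies, all on 1 strand at each peak. None of the 5840 peaks within 1 kb of a TSS and none of the 1592 flanking windows had as many, and 18 of 1129 and 13 of 1384 peaks at 10 to 100 kb inside and outside genes did. The largest array, 17 copies in a Pld1 intron with a median of 16 bp from copy to copy, had 14 input, 65 and 44 ChIP counts. At the peak between Zfp644 and Hfm1 all 12 copies were 19 bp apart (4, 36 and 16 counts), and in a Chn2 intron 11 copies were 23 to 28 bp apart (9, 38 and 34). The 10 had medians of 8 input and 36 and 36 ChIP counts, against 6, 26 and 25 at the other distant peaks, so input and ChIP were both higher. Only 1 of the 10 was mostly soft-masked (99.7% of its bases, between Slc30a5 and 5930438M14Rik). Whether reads from copies of these arrays elsewhere in the genome add to their counts was not tested.

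Other short motifs were counted in the same way, on both strands. TCAAGGTCA, the extended half-site bound by receptors such as SF-1 (NR5A1) and the estrogen-related receptors, contains the plain half-site. It was in 6.66% of distant peaks, 0.754% of flanking windows, 0.461% of tiles and 0.873% of peaks near a TSS. At 10 to 100 kb it was in 6.20% of peaks inside and 3.76% outside genes. The half-site of nuclear factor I, TTGGCA, was in 23.0% of the peaks and 14.4% of the windows. The E-box CANNTG was in 88.6%, 79.6% and 79.0%, and TGACAG, a TALE homeobox motif, in 23.4%, 19.9% and 17.4%. GGAATG, the TEAD motif, was in 21.7%, 17.2% and 16.3%.

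Motifs rich in A and T were less frequent in the peaks than in tiles: GATAA, the GATA motif, was in 33.7% against 39.7% of windows and 47.3% of tiles, ACAAAG (Sox and TCF factors) in 22.0% against 25.4% and 26.8%, and TAATTA (homeobox factors) in 9.80% against 10.6% and 12.5%. The AP-1 motif TGANTCA was in 8.17%, 10.1% and 9.0%. The peaks had more GC than windows and tiles, and its part in these shares was not tested.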

How the data were processed

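Each library had 1 deposited table, in which the authors gave an unnormalised read count for every peak. The reads, single-end, went through Trim Galore 0.6.7, local alignment to mm10 by Bowtie 2, a cut on mapping quality and removal of duplicates by Picard 1.110. Peaks were called with HOMER 4.11.1 on the merged ChIP replicates, which selects high ChIP counts, then resized to 300 bp and cleared of blacklisted regions. Duplicate removal limits how high a count can rise. No source used here gives the rule that assigned reads to peaks.

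Groups came from the labels. TSSs were those of 45756 curated RefSeq transcripts of 26180 genes (GRCm38, the assembly of mm10), and 5 peaks on unplaced contigs were left out of distances. GENCODE M21 was added as a TSS set after seeing the data. The peaks, gene lists and rule for named peaks (the most ChIP or input counts, the farthest, those called in a test, those with the direct repeat, those of the richest stretches and genes, up to 4 per list) were chosen with earlier results of these data known. Peaks with 5 or more copies of AGGTCA, the replicate-test peaks beyond 3, the peak with fewer counts in 1 ChIP replicate than in the input and further peaks of the gene lists were named after their values were seen.

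All 10069 peaks were tested with edgeR 4.0.16 (quasi-likelihood, R 4.3.3, Benjamini-Hochberg adjusted p under 0.05), with TMM factors or at assumed equal depth, and with DESeq2 1.42.0 as an alternative. The single input was assumed to vary like the ChIP libraries. Replicates were compared by exact binomial tests (scipy 1.17.1), adjusted over all peaks. These tests were tested on simulated data. With a median of 6 input counts, counting error in the input limits every ratio. Some named peaks and genes that the rule selects are not reported here.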

Additional observations from a re-analysis of the deposited data

How the results depend on the processing

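No paired analysis was possible because the single input carries no replicate number, and leaving out 1 ChIP library leaves 1 library against 1 with no residual degrees of freedom, so the calls were not recomputed that way. Without each ChIP replicate in turn, the median ChIP to input ratio of the distant peaks was 4.07 to 4.27, and the log2 difference from peaks within 1 kb of a TSS -0.37 to -0.17. The number of distant peaks was 1541 at a 50 kb threshold, 267 at 200 kb, 289 with predicted transcripts and 145 with GENCODE M21, and 46.2% of the 796 lay inside a gene with predicted transcripts. Peaks above the typical ratio numbered 0 with DESeq2 size factors, 0 with DESeq2 (776 of 796 without an adjusted p) and 0 with at least 10 input counts, which left 106 of the 796 to test. Above input at equal depth were 0 with ChIP libraries 2 times deeper, 330 with DESeq2 and 83 of 106 with at least 10 input counts, but 765 with ChIP libraries 2 times shallower and 756 with the robust quasi-likelihood fit. The median ratio was 2.81 with 5 added to each count and 3.25 with at least 10 input counts. Median GC was 52.0% in the central 100 bp and 46.4% over 1000 bp. AGAGGTCA or AGGGGTCA was in 10.2% of the central 100 bp and 23.1% of 1000 bp windows. With the totals of distant peaks as the reference, 1 peak differed between replicates, and with protein-coding flanking genes only, 240 peaks had a listed gene. Of the alternatives for these results, 24 stayed within the limits set for a change (1.5 times for a count), 12 were marked as moved and 7 gave fewer calls. Those for GC content, among the 12, were marked as moved with no limit set. Only the log2 difference could change sign, and it stayed negative in every alternative. The cause of each shift was not tested, except that higher thresholds, fuller annotations and the input minimum change which peaks are counted.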
